A study of Homo sapiens with 12 samples.

Results

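The genes described are 10 cyclins: CCND1, CCND3, CCNE1, CCNE2, CCNA2, CCNB1, CCNB2, CCNF, CCNG1 and CCNG2. They were listed by name and not by a rule on measured values, but with earlier results of these data known. All 10 were measured, among 14029 genes tested. The cells were ES-2, a human ovarian cancer line, carrying either the empty control vector or an shRNA (a short hairpin RNA that lowers a chosen mRNA) against SRMS, a non-receptor tyrosine kinase. The 12 samples of the series form 4 groups of 3, the 2 constructs each with phosphate-buffered saline or with 15 µM cisplatin, a drug that crosslinks DNA, for 8 hours. Values were used for the 6 cisplatin libraries, so every difference below is between constructs under cisplatin, and the PBS samples are not analysed here. The labels name neither the number of hairpins nor whether the cells were a clone, and they do not say that replicates were separate cultures, so p-values measure only the spread between these libraries, which may be technical.

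Cyclins are the regulatory subunits that switch on cyclin-dependent kinases (CDKs). D-type cyclins pair with CDK4 and CDK6 in G1 and respond to mitogens, E-type cyclins pair with CDK2 at the entry into S phase, cyclin A2 acts in S and G2, and B-type cyclins pair with CDK1 to drive mitosis. Cyclin F is the odd member: it binds no CDK and instead forms the substrate-binding part of a ubiquitin ligase. Cyclins G1 and G2 are linked to growth arrest, and the second is a FOXO target.

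Values are the deposited signal, which is reads scaled to an effective library size, on a linear scale. The libraries held 28027989 to 56907063 recovered reads, and single cyclins were counted in 208 to 31541 reads. SRMS mRNA did not pass as lower under the shRNA label, with 0.397 ± 0.384 for the vector and 0.755 ± 0.384 for the shRNA label (signal, mean ± SD, n = 3 each; limma adjusted p = 0.168), on 2 to 47 reads per library. It was higher in all 3 same-numbered pairs, and with the replicate block it passed as higher (log2 fold change 0.52, limma adjusted p = 0.00782). Directions below therefore follow the labels. Replicate 1 stood apart from replicates 2 and 3 in both groups. Of 17 markers of leukocytes, endothelium, fibroblasts and mesothelium, 9 were in the table, and their summed signal was 1315 to 1317 with the vector and 890 to 900 with the shRNA label, most of it COL1A1. The markers did not move together: 2 of the 9 were higher and 3 lower by limma at an adjusted p under 0.05. These counts were near the shares of all genes tested, 26.6% and 30.2%. The leukocyte markers CD14 (0.879 ± 0.197 to 3.24 ± 0.37) and CD68 (50.2 ± 1.79 to 59.0 ± 2.38) rose, while endothelial CDH5 (15.2 ± 1.09 to 6.12 ± 0.763), PDGFRA and COL1A1 (1238 ± 1.77 to 816 ± 3.24) fell. PTPRC, CD3E, VWF, DCN and MSLN are not among the genes tested. The part of these markers in the results was not tested.

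Cyclin D1 mRNA was higher, cyclin E1, E2 and F mRNAs were lower, and cyclin B2 mRNA was slightly higher in the libraries labelled SRMS shRNA. The other 5 cyclins did not pass the test. Of the 10, 2 rose and 3 fell by limma at an adjusted p under 0.05, where 26.6% of all genes tested rose and 30.2% fell. The share called in either direction, 5 of 10, was close to the 56.8% of all genes. The groups of 3 did not overlap for these same 5 cyclins, against 62.7% of all genes. With the replicate block 3 rose and 4 fell, where all genes gave 31% and 34.3%. After median scaling, which aligns the libraries on their median gene, 5 rose and 2 fell, where all genes then gave 44.6% and 17.9%. The median log2 fold change was -0.02 over the cyclins and 0.00 over all genes. In bulk RNA, fewer cells in a phase of the cycle and less mRNA per cell cannot be told apart.

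**Figure D1:**
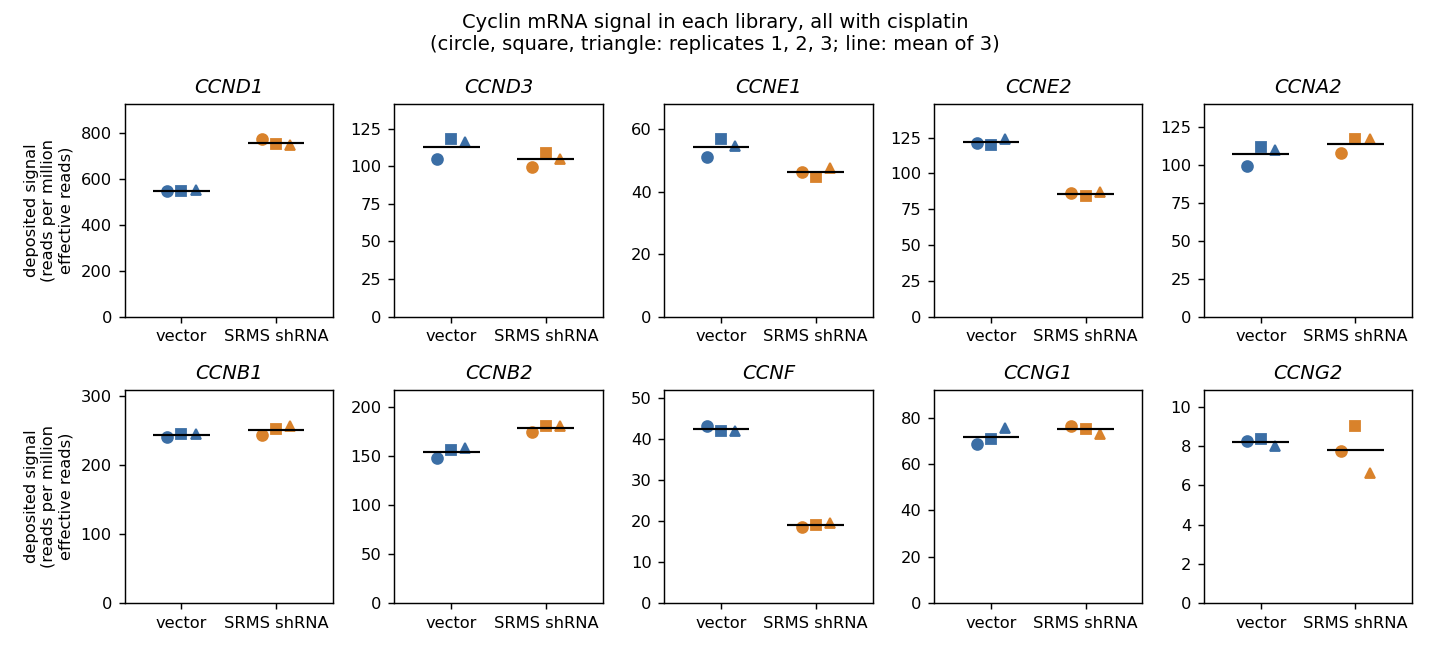
Deposited signal of the 10 cyclins (y axis from 0, reads scaled to an effective library size) in the 3 vector libraries and the 3 labelled SRMS shRNA, all with cisplatin; symbols mark replicates 1 to 3 and lines the means. CCND1 sits at 545 to 550 against 749 to 773, and CCNF at 41.9 to 43.3 against 18.6 to 19.4, while the points of CCND3, CCNA2, CCNB1, CCNG1 and CCNG2 overlap between the constructs.

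The order of cyclin levels was compared per kilobase of transcript, since longer mRNAs give more reads. With the vector, CCND1 was the most abundant at 127 per kb, followed by CCNB1 at 112, CCNB2 at 98.9 and CCND3 at 54.1. CCNA2 followed at 38.2 and CCNE2 at 36.6, and the ranges of these neighbours overlapped. CCNG1 stood at 29.2, CCNE1 at 26.6, CCNF at 9.89 and CCNG2 at 1.49. With the shRNA label the top was again CCND1, at 176 per kb. CCNB1 and CCNB2 could no longer be separated, with ranges of 112 to 118 and 112 to 117. CCNE2 lay below CCNG1 there, at 25.8 against 30.5 per kb, without overlap, whereas with the vector it lay above. The order between genes rests on 1 transcript length per gene. Which transcripts were expressed was not tested, and the ranges do not cover this.

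**Figure D2:**
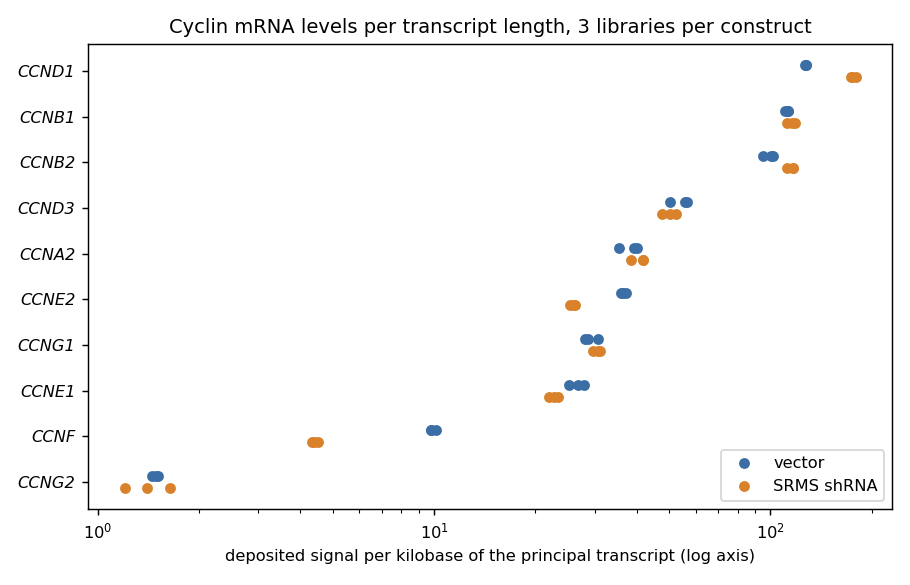
Signal per kilobase of the principal transcript (log x axis) for the 10 cyclins, with 3 points per construct. The levels span 1.49 (CCNG2) to 127 (CCND1) per kb with the vector, and CCNE2 and CCNG1 exchange places between the constructs.

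CCND1 encodes cyclin D1, the partner of CDK4 and CDK6 that opens the G1 phase by phosphorylating RB. Its signal was 545, 548 and 550 in vector replicates 1, 2 and 3, and 773, 752 and 749 in those labelled SRMS shRNA. All 3 shRNA-labelled libraries lay above all 3 vector libraries, and the spread within each construct was under 2% of the mean (CV 0.391% and 1.77%). The mean was 1.38 times that of the vector, with a log2 fold change of 0.47 (SE 0.0304, 95% interval 0.40 to 0.54, limma adjusted p = 1.4e-06). The gene (ENSG00000110092) lies on chromosome 11, 69641087 to 69654474 on the plus strand of GRCh38, with 5 exons in its principal transcript. Of its exonic bases, 10.3% are shared with LTO1 on the opposite strand, a gene with a log2 fold change of 0.59. Whether counting used strand is not given in the sources used here, so reads in that stretch cannot be assigned. The same holds for the other overlaps given below.

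CCND3, the other D-type cyclin of the table, did not pass the test. It had 105, 118 and 116 with the vector and 99.4, 109 and 105 with the shRNA label, so the groups overlapped although each same-numbered pair was lower. The log2 fold change was -0.11 (95% interval -0.23 to 0.01, limma adjusted p = 0.103). With the replicate block it passed (-0.11, limma adjusted p = 0.00152), and without vector replicate 1 it was -0.16 (limma adjusted p = 0.0168). After median scaling it was 0.05. The gene (ENSG00000112576) spans 41934933 to 42050357 on the minus strand of chromosome 6. CCND2, the remaining D-type cyclin, is not among the genes tested.

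A ratio of 2 cyclins within a library does not depend on how that library was scaled. CCND1 to CCND3, each per kilobase, was 2.52, 2.25 and 2.29 with the vector and 3.77, 3.33 and 3.44 with the shRNA label. The ratio was higher in all 3 shRNA-labelled libraries, without overlap, but this did not pass a test. A two-sided exact permutation test gave p = 0.1, the smallest that 3 against 3 allows, and 0.12 after Benjamini-Hochberg adjustment over the 6 ratios computed, 2 of which set a called rise against a called fall and are not described.

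Both E-type cyclins fell. CCNE2, which activates CDK2 at the start of S phase, had 121, 120 and 124 with the vector and 86.3, 84.2 and 87.2 with the shRNA label. The groups were far apart relative to their spread, at 122 ± 1.76 and 85.9 ± 1.54 (mean ± SD, n = 3 each). This was a log2 fold change of -0.50 (SE 0.035, 95% interval -0.58 to -0.42, limma adjusted p = 2.03e-06). Its gene (ENSG00000175305) lies on chromosome 8, 94879770 to 94896678, minus strand. Of its exonic bases, 37.0% are shared with INTS8 on the opposite strand, which had a log2 fold change of -0.12. Reads in that stretch cannot be assigned, which limits both the level and the difference of CCNE2.

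CCNE1, its close relative, had 51.3, 56.9 and 54.6 with the vector and 46.5, 44.9 and 47.7 with the shRNA label. The groups did not overlap, though vector replicate 1 lay only a little above the highest shRNA-labelled library. This was a log2 fold change of -0.22 (SE 0.0495, 95% interval -0.33 to -0.11, limma adjusted p = 0.00311). After median scaling it kept its sign at -0.06 but no longer passed (limma adjusted p = 0.289). The gene (ENSG00000105173) spans 29811898 to 29824308 on the plus strand of chromosome 19.

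CCNE2 to CCNE1 per kilobase was 1.45, 1.30 and 1.39 with the vector and 1.14, 1.15 and 1.12 with the shRNA label, so the values were lower in each shRNA-labelled library. The test stood at its smallest possible p here too and cannot decide (exact permutation p = 0.1, adjusted 0.12).

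Cyclin A2 and cyclin B1, which carry cells through S phase, G2 and mitosis, did not pass the test. CCNA2 had 99.1, 112 and 110 with the vector and 108, 117 and 117 with the shRNA label, with replicate 1 the lowest of each group. Its log2 fold change was 0.09 (95% interval -0.02 to 0.21, limma adjusted p = 0.148). With the replicate block the same difference passed (0.09, limma adjusted p = 0.00428), and without SRMS shRNA replicate 1 it was 0.13 (limma adjusted p = 0.0341). CCNB1 had 240, 245 and 244 against 243, 252 and 257, which overlap. Its log2 fold change was 0.04 (95% interval -0.03 to 0.12, limma adjusted p = 0.311), and -0.02 with quantile scaling. After median scaling both passed, at 0.26 for CCNA2 and 0.20 for CCNB1. CCNA2 (ENSG00000145386) lies on chromosome 4, 121816444 to 121823933, minus strand, and shares 9.08% of its exonic bases with EXOSC9 on the opposite strand. CCNB1 (ENSG00000134057) lies on chromosome 5, 69167010 to 69178245, plus strand.

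CCNB2, the second mitotic B-type cyclin, rose. It had 148, 156 and 158 with the vector and 174, 181 and 181 with the shRNA label, without overlap. The mean was 1.16 times that of the vector, with a log2 fold change of 0.21 (SE 0.0373, 95% interval 0.13 to 0.30, limma adjusted p = 0.000694). It came to 0.09 (limma adjusted p = 0.00147) in the fit with the replicate block that also takes out length and GC effects, and to 0.37 after median scaling. CCNB2 to CCNB1 per kilobase was 0.862, 0.885 and 0.899 with the vector and 0.995, 1.01 and 0.983 with the shRNA label, without overlap. The test was again at its smallest possible p and cannot decide (exact permutation p = 0.1, adjusted 0.12). CCNA2 to CCNB1 was 0.341 ± 0.0179 and 0.353 ± 0.00804, with overlapping libraries (exact permutation p = 0.5, adjusted 0.5). CCNB2 (ENSG00000157456) spans 59105078 to 59125045 on the plus strand of chromosome 15.

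CCNF had the largest difference of the 10. Cyclin F binds its substrates for ubiquitination in G2, among them the ribonucleotide reductase subunit RRM2 and the centrosomal protein CCP110. Its signal was 43.3, 41.9 and 41.9 with the vector and 18.6, 18.9 and 19.4 with the shRNA label, on 509 to 2404 reads. No library came near those of the other construct, and the mean with the shRNA label was 0.448 times that of the vector. On the log2 scale it fell by 1.14 (SE 0.0484, 95% interval -1.25 to -1.03, limma adjusted p = 1.32e-07). Only 96 of the 14029 genes, CCNF included, had a log2 fold change this low or lower. The gene (ENSG00000162063) lies on chromosome 16, 2429394 to 2458854, plus strand, with 17 exons, and 8.35% and 3.47% of its exonic bases are shared with 2 noncoding genes on the opposite strand.

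**Figure D3:**
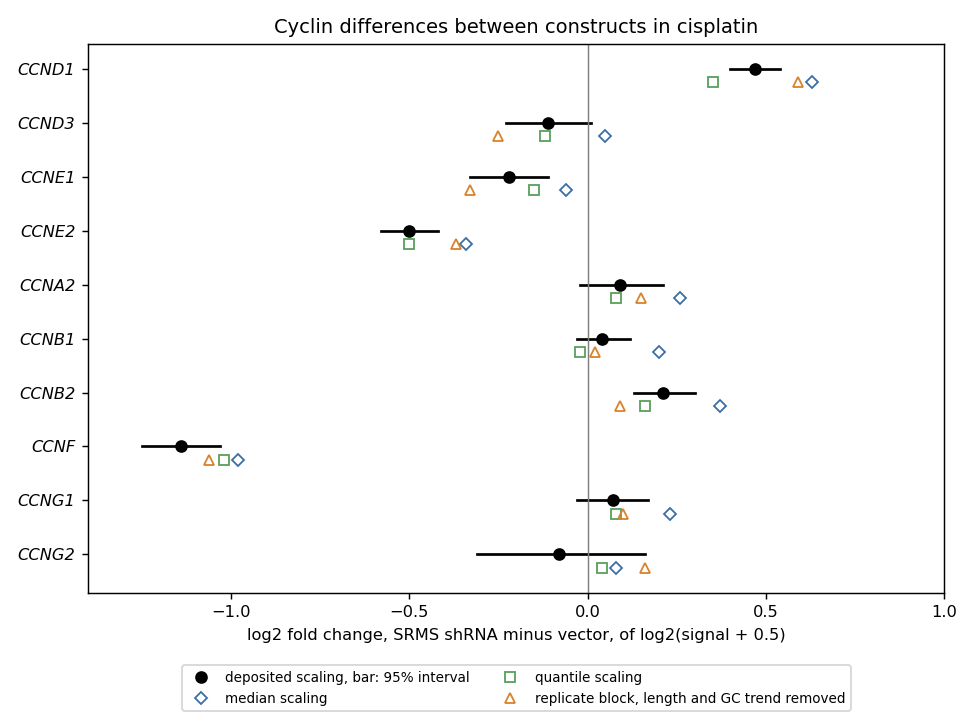
Log2 fold change of each cyclin (x axis, libraries labelled SRMS shRNA minus vector, of log2(signal + 0.5)); black points and bars are the deposited scaling with its 95% interval, open symbols are other settings. CCND1, CCNE2, CCNB2 and CCNF stay on one side of 0 at every symbol shown, CCNE1 comes as near as -0.06, and CCND3, CCNB1 and CCNG2 cross 0.

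CCND1, CCNE2, CCNB2 and CCNF kept their direction and stayed past the threshold in all 18 alternatives, each of which refits all genes. Their log2 fold changes ran from 0.35 to 0.63, from -0.51 to -0.34, from 0.09 to 0.37 and from -1.15 to -0.98. CCNE1 kept its sign in all 18 (-0.33 to -0.06) and passed in 17 of them. Median scaling raised the all-gene median by 0.16 in log2 units, and each cyclin rose by about as much.

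CCNF fell and CCNB2 rose, and the DNA before both starts carries the same kinds of motif, so these stretches are shown, with CCNA2 beside them. Mitotic genes are known for CCAAT boxes, bound by the factor NF-Y, and for the CHR (cell cycle genes homology region), bound by the MuvB complex. Sequences are from the RefSeq promoter table (build GRCh38.p14), 5′ to 3′ on the gene's strand. The first 3 lines end where the principal GENCODE transcript begins, 68, 53 and 50 bases before the RefSeq start. Capitals mark CCAAT, the CHR letters TTTGAA, and its variants, which are TTCGAA, then TTTAAA, and also CTTGAA, on either strand (ATTGG is CCAAT on the other strand).
CCNB2, chr15:59104896-59105077, plus strand: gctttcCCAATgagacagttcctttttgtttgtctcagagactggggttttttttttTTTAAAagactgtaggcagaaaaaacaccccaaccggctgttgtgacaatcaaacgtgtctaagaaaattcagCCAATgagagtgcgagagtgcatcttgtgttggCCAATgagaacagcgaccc
CCNF, chr16:2429197-2429393, plus strand: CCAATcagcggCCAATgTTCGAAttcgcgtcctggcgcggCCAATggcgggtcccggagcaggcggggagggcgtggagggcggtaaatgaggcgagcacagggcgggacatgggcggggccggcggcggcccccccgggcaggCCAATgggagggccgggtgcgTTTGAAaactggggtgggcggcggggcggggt
CCNA2, chr4:121823934-121824133, minus strand: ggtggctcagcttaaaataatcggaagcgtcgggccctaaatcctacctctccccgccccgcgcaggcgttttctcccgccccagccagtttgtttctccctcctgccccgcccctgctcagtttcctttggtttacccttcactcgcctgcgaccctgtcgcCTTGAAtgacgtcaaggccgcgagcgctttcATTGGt
CCNB2 site, chr15:59105105-59105134, plus strand: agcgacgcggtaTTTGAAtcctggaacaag
CCNB1 site, chr5:69167108-69167137, plus strand: agcagtgcggggTTTAAAtctgaggctagg
CCNA2 site, chr4:121823894-121823923, minus strand: agtcgcgggataCTTGAActgcaagaacag
The last 3 lines show, in 30 bases each, the CHR letters (CCNB2) or a variant (CCNB1 and CCNA2) nearest the RefSeq start, which begin 29 bases before it in CCNB2, 30 in CCNB1 and 28 in CCNA2.

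In the 250 bases before the RefSeq start, CCNB2 and CCNF each hold 4 CCAAT boxes and 1 TTTGAA, which begins 29 bases before the start in CCNB2 and 85 in CCNF. Among 16462 such windows of tested genes, 3.91% hold 3 or more CCAAT boxes, 9.49% hold TTTGAA, and 1.21% hold TTTGAA with at least 2 CCAAT boxes. CCNB1 holds 2 CCAAT boxes and the variant TTTAAA, and CCNA2 holds 1 CCAAT box and CTTGAA at 2 places. The variant TTTAAA also begins 28 bases before the start of CCNE1 and 73 before that of CCNG2. At least 1 of the 3 variants lies in 15.2% of windows, and a single CCAAT box or more in 33.3%. CCNG1 holds 4 CCAAT boxes and no CHR letters. The E2F letters TTTCGCGC, or else TTTGGCGC, or else TTTCCCGC, lie in 3.39% of windows and in none of those of the 8 cyclins matched in the table, which says only that these letters are not in these windows. CCND1 and CCNE2 were not matched. By the principal GENCODE start instead, the TTTGAA of CCNB2 lies inside the transcript, and that of CCNF still lies before it. The GENCODE start of CCNB1 lies 140 bases before its RefSeq start, so all its matches fall inside that transcript. A match is a description of letters, not a measured binding site.

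**Figure D4:**
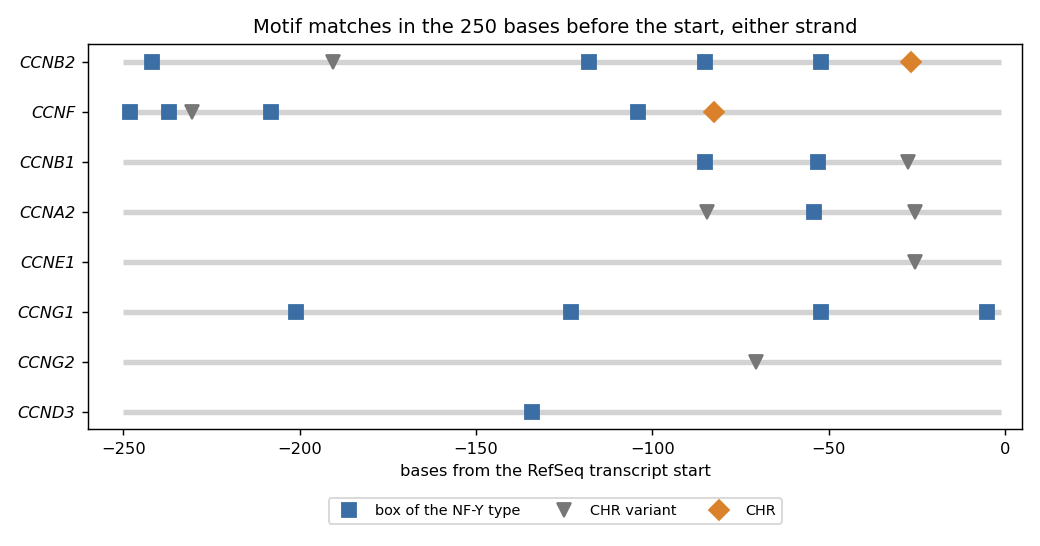
Positions of motif matches (x axis, bases from the RefSeq start) in the 250 bases before the start of 8 cyclins, on either strand, with 1 window per gene; squares are CCAAT boxes of the NF-Y type, diamonds the CHR letters and triangles their variants. CCNB2, which was higher, and CCNF, which was lower, each show 4 squares and 1 diamond.

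Cyclins G1 and G2 did not pass the test. CCNG1 had 68.9, 70.7 and 75.6 with the vector and 76.7, 75.4 and 73.0 with the shRNA label, and the groups overlapped. Its log2 fold change was 0.07 (95% interval -0.03 to 0.17, limma adjusted p = 0.236), and after median scaling it passed at 0.23 (limma adjusted p = 0.00147). CCNG2, the rarest of the 10, had 8.26, 8.38 and 8.00 against 7.74, 9.05 and 6.65. Its shRNA-labelled libraries scattered on both sides of the vector (CV 15.4% against 2.39%). The log2 fold change was -0.08 (95% interval -0.31 to 0.16, limma adjusted p = 0.552), and it was 0.08 after median scaling and 0.03 without SRMS shRNA replicate 3. CCNG1 (ENSG00000113328) spans 163437569 to 163446151 on the plus strand of chromosome 5, and CCNG2 (ENSG00000138764) spans 77157151 to 77433388 on the plus strand of chromosome 4.

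Of 8 measured genes of the FOXO axis, the setting of CCNG2, 2 rose and 3 fell (median -0.05), near the all-gene shares of 26.6% and 30.2%. After median scaling 3 were higher and 2 lower, where all genes gave 44.6% and 17.9%. Of the 8, 1 was higher without vector replicate 1 or 2 or without SRMS shRNA replicate 1 or 2. In those fits 22.8% to 27.7% of all genes were higher. FOXO3, a FOXO factor, fell from 10.8 ± 0.96 to 5.74 ± 0.177 and TXNIP, a thioredoxin inhibitor, from 55.4 ± 3.66 to 26.6 ± 1.08. Of 8 genes for PP2A subunits and GAK, which include known partners of G-type cyclins, 0 rose and 4 fell (median -0.18), against 26.6% and 30.2% of all genes. After median scaling, 2 were higher and 1 lower (all genes 44.6% and 17.9%), and with quantile scaling 0 and 2 (all genes 28.3% and 26.3%). With the replicate block the count was 0 and 6 (all genes 31% and 34.3%). It was 2 and 2 where that fit also took out length and GC effects (median -0.03, all genes 30.7% and 30.2%). PPP2R5D, a regulatory subunit of PP2A, fell from 89.4 ± 2.95 to 66.5 ± 1.56.

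The catalytic partners of the cyclins differed in both directions. Of 7 genes, the CDKs of the cycle and MNAT1 of the CDK-activating kinase, 2 rose and 2 fell, a share close to the 56.8% of all genes, and the median log2 fold change was 0.08. CDK4 rose from 256 ± 1.35 to 280 ± 5.00 (log2 fold change 0.13, limma adjusted p = 0.00442). CDK6, the other kinase of the D-type cyclins, fell from 6.78 ± 0.431 to 4.93 ± 0.755 (log2 fold change -0.43, limma adjusted p = 0.00715). CDK7, which activates the other CDKs, fell from 32.6 ± 1.10 to 24.9 ± 1.39. CDK1 and CDK2 did not pass, at 201 ± 9.86 against 212 ± 8.46 and at 102 ± 1.47 against 102 ± 4.04. After median scaling, 5 were higher and 2 lower, where all genes gave 44.6% and 17.9%. With quantile scaling 1 was higher and 2 lower (all genes 28.3% and 26.3%). With the replicate block and length and GC effects taken out, 2 were higher and 1 lower (all genes 30.7% and 30.2%).

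Most of the genes named as CDK inhibitors were higher. The test called 6 of 8 higher and 0 lower, against 26.6% and 30.2% of all genes. Their median log2 fold change was 0.43. CDKN2B, which encodes p15 and blocks CDK4 and CDK6, had 18.2, 16.8 and 16.0 with the vector and 29.9, 29.5 and 28.8 with the shRNA label. Its groups did not overlap, and its log2 fold change was 0.77 (SE 0.0612, limma adjusted p = 4.2e-06). CDKN1A, which encodes p21, rose from 18.5 ± 0.32 to 23.3 ± 1.24, and CDKN1B, which encodes p27, from 34.5 ± 1.18 to 47.7 ± 3.44. CDKN2A, which encodes p16, rose, with 346, 431 and 424 for the vector and 447, 616 and 613 for the shRNA label, replicate 1 being the lowest of each group. These are values for the whole gene, and which of its transcripts were counted was not tested. CDKN3, which encodes a phosphatase and is counted here by its name, rose from 54.6 ± 3.37 to 75.0 ± 6.15. CDKN1C, named after its values were seen, is listed at 0 in all 3 vector libraries and had 2 to 8 reads with the shRNA label. Without it 5 of 7 rose, with a median of 0.45. The count was 7 and 0 after median scaling, where 44.6% of all genes were higher and 17.9% lower. It was 6 and 0 with quantile scaling, where all genes gave 28.3% and 26.3%. With the replicate block it was 7 and 1 (all genes 31% and 34.3%). Where that fit also took out length and GC effects it was 5 and 1 (all genes 30.7% and 30.2%), with a median of 0.22.

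Genes of RB and E2F, through which D-type and E-type cyclins act on transcription, were mostly lower. Of 13 measured, 0 rose and 11 fell, where 30.2% of all genes fell, with a median log2 fold change of -0.45. E2F3, an activator, had 22.2, 20.9 and 21.2 with the vector and 11.2, 9.73 and 10.9 with the shRNA label, without overlap (log2 fold change -0.98, SE 0.0707, limma adjusted p = 2.37e-06). The repressors E2F7 and E2F8 fell from 87.9 ± 3.57 to 53.8 ± 5.17 and from 54.5 ± 1.33 to 36.1 ± 1.48. After median scaling, 1 was higher and 8 lower (median -0.29), where all genes gave 44.6% and 17.9%. With quantile scaling 0 were higher and 10 lower (all genes 28.3% and 26.3%). With the replicate block 1 was higher and 11 lower (all genes 31% and 34.3%).

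Of 10 genes for MuvB, B-MYB, FOXM1 and NF-Y, the factors that read CHR and CCAAT elements, 0 rose and 7 fell, against 26.6% and 30.2% of all genes, and the median was -0.13. LIN54, the MuvB subunit that contacts DNA, fell from 12 ± 0.656 to 5.01 ± 0.241, and NFYA, the DNA-contacting NF-Y subunit, from 31.8 ± 1.35 to 17.6 ± 1.08. FOXM1 did not pass, at 334 to 346 with the vector and 334 to 338 with the shRNA label. After median scaling, 2 were higher and 3 lower (median 0.03), where all genes gave 44.6% and 17.9%. The number lower was 4 without vector replicate 3 and with replicates 2 and 3 averaged, where 26.4% and 23.4% of all genes were lower. It was 5, beside 1 higher, with the replicate block and length and GC effects taken out (all genes 30.2% lower and 30.7% higher).

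**Figure D5:**
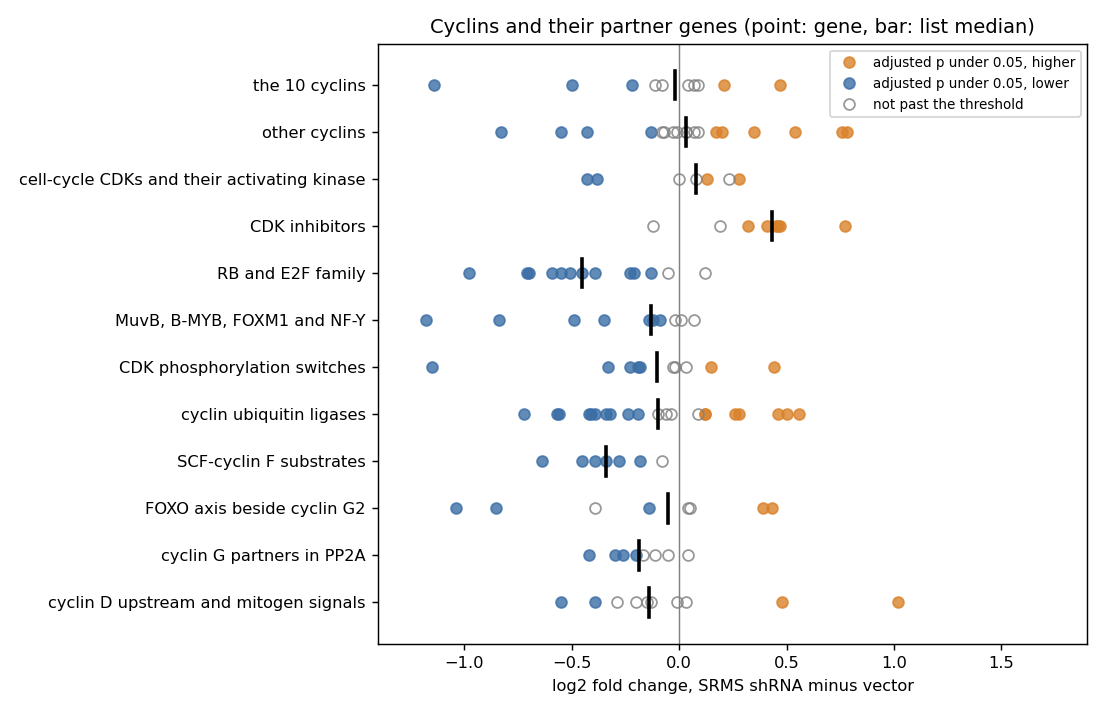
Log2 fold changes (x axis, libraries labelled SRMS shRNA minus vector) of the 10 cyclins and of 11 lists of partner genes (rows), 1 point per gene; filled points passed the limma test and black bars are list medians. The bar of the CDK inhibitors lies at 0.43 and that of RB and E2F genes at -0.45, while the 10 cyclins lie on both sides of 0.

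Genes that set the phosphorylation of CDKs, listed together with the CDK-binding subunits CKS1B and CKS2, were mixed. Of 10, 2 rose and 5 fell (median -0.10), where 26.6% of all genes rose and 30.2% fell. The 2 that rose were CKS1B (log2 fold change 0.44) and PLK1 (0.15). After median scaling 3 were higher and 2 lower (all genes 44.6% and 17.9%). With the replicate block and length and GC effects taken out, 1 was higher and 6 lower (median -0.20, all genes 30.7% and 30.2%). Only 1 was higher without vector replicate 1 or 3 or without SRMS shRNA replicate 2 or 3. In those fits 22.8% to 23.5% of all genes were higher. CDC25A, a phosphatase that activates CDK2 and CDK1, fell from 80.7 ± 2.37 to 36.2 ± 1.01 (log2 fold change -1.15, SE 0.0431, limma adjusted p = 6.19e-08). This was a difference about as large as that of CCNF.

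Genes of the ligases that degrade cyclins included rises and falls. Of 21, 7 rose and 10 fell (median -0.10), against 26.6% and 30.2% of all genes. After median scaling 9 were higher and 7 lower (all genes 44.6% and 17.9%). With the replicate block and length and GC effects taken out, 5 were higher and 9 lower (median 0.02, all genes 30.7% and 30.2%). CUL1, the scaffold of the SCF ligases that cyclin F also joins, fell from 116 ± 3.39 to 77.9 ± 1.41, and CDC27, a subunit of the anaphase-promoting complex (APC/C), from 70.5 ± 3.99 to 47.7 ± 0.999. ANAPC11, the RING subunit of the APC/C, rose from 96.0 ± 3.36 to 142 ± 5.42. Of 7 genes for cyclin F substrates, of which E2F1 is also counted with RB and E2F above, 0 rose and 6 fell at the mRNA level (median -0.34), where 30.2% of all genes fell. After median scaling 4 fell, where 17.9% of all genes did. EXO1, a nuclease of DNA repair, fell from 94.8 ± 2.96 to 60.7 ± 1.53, while RRM2 had 149 ± 6.55 and 141 ± 2.58 and did not pass (limma adjusted p = 0.128). RRM2 passed as lower with the replicate block (log2 fold change -0.08, limma adjusted p = 0.0148) and with quantile scaling (-0.11, limma adjusted p = 0.0496), and was 0.08 after median scaling. Protein levels, on which cyclin F acts, were not measured.

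Of 10 genes upstream of CCND1, 2 rose and 2 fell (median -0.14), where 56.8% of all genes were called. With the replicate block 2 were higher and 5 lower, where all genes gave 31% and 34.3%. FOS, an AP-1 subunit, rose from 29.3 ± 1.51 to 59.8 ± 3.35, and EGFR, a growth factor receptor, fell from 38.6 ± 1.01 to 26.3 ± 0.949. MYC had 215 ± 11.1 and 196 ± 14.3 and did not pass (limma adjusted p = 0.0675). After median scaling, 4 were higher and 2 lower, where all genes gave 44.6% and 17.9%.

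The remaining cyclin genes of the family, most of which act in transcription or have no settled role in the cycle, were called about as often as all genes. Of 18 measured, 6 rose and 4 fell (median 0.03), where 26.6% and 30.2% of all genes did. CCNJL fell from 7.80 ± 0.935 to 4.15 ± 0.34. CCNT1, the cyclin of the elongation factor P-TEFb, fell from 55.0 ± 4.2 to 37.4 ± 4.07. CCNA1, the germline relative of CCNA2, rose from 1.58 ± 0.378 to 2.99 ± 0.317, on 37 to 104 reads. After median scaling, 9 were higher and 3 lower, where all genes gave 44.6% and 17.9%. Among the 15 with a mean log2 value of at least 1, 4 were higher and 4 lower, where all genes gave 27.4% and 36.1%.

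For each cyclin the gene with the most similar profile was found, as the smallest Euclidean distance between log2 values centred on their mean over the 6 libraries. With so few libraries this mostly matches the size of the construct difference. CCND1 was nearest to ACADVL (distance 0.0353), CCNE2 to SOCS5 (0.0363) and CCNE1 to SH3BP5L (0.0525). CCNB2 was nearest to CIZ1 (0.0229), CCNB1 to PIGK (0.0237) and CCNA2 to CCDC137 (0.0273). CCNF was nearest to SHLD2, at the greatest distance of the 10 (0.0775). CCND3 was nearest to PDLIM1, CCNG1 to NT5C2 and CCNG2 to MPI. No cyclin had another of the 10 as its nearest gene.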

How the data were processed

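Per the submitters' processing notes, reads were handled with FastQC, cutadapt, HISAT2, StringTie and edgeR on GRCh38; the sources used here do not give versions, settings, strand use or the low-value filter. The deposited values, named log CPM, are a linear signal, read counts scaled to an effective library size. Division by the value of 1 read came out whole, to within 0.1, for at least 99.993% of values per library.

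The 13 rows for Y copies of pseudoautosomal genes were left out of 14042, leaving 14029 genes, of which 14007 matched a symbol. Coordinates and transcript lengths are from GENCODE 29, with 1 principal coding transcript per gene. The test was limma 3.58.1 (R 4.3.3) with a mean-variance trend on log2(signal + 0.5), a scale that understates changes of low genes, with p adjusted by Benjamini-Hochberg across the 14029 genes, called under 0.05. It was also run on simulated data, and the outcome of that run is not given here. Count tests on the recovered reads used edgeR 4.0.16 and DESeq2 1.42.0.

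Labels share replicate numbers. Deviations of same-numbered libraries correlated across genes with r of 0.309, 0.106 and 0.12, so the block was fitted, but replicates 2 and 3 correlated as much across numbers (0.113 and 0.114). Chi-square per gene between replicates 2 and 3 was 1.79 and 1.65, against 3.55 to 5.07 with replicate 1.

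The cyclins, the lists and the alternatives were chosen with earlier results of these data known. Named beside the cyclins and SRMS were up to 3 genes per list with the smallest adjusted p among called genes that moved by 0.5 or more in log2 (otherwise the single smallest), and the nearest gene of each cyclin. CDK1, CDK2, CDK4, CDK6, CDKN1A, CDKN1B, CDKN1C, CDKN2A, CDKN3, CKS1B, PLK1, FOXM1, RRM2 and MYC fall outside this rule and were named for their roles after their values were seen. A list set beside CCNG1 is not reported here.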

Additional observations from a re-analysis of the deposited data

How the results depend on the processing

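The 18 alternatives were the replicate block, alone or with length and GC effects taken out, median and quantile scaling, pseudocounts of 0.1 and 1, a minimum mean log2 value of 1 (SRMS was not fitted there), no trend, edgeR and DESeq2 on recovered reads, replicates 2 and 3 averaged, replicate 1 of both groups left out, and each library left out. Median scaling changed the genes called to 6254 higher and 2510 lower, from 3736 and 4233. It gave 0.05 for CCND3 and 0.08 for CCNG2, both with the sign changed, weakened CCNE1 to -0.06, and took CCNA2 (0.26), CCNB1 (0.20) and CCNG1 (0.23) past the threshold. Quantile scaling changed the sign of CCNB1 (-0.02) and CCNG2 (0.04). The replicate block took CCND3 (-0.11), CCNA2 (0.09) and SRMS (0.52) past the threshold and changed no other call among the cyclins. Where that fit also took out length and GC effects, CCND3 (-0.25), CCNA2 (0.15) and CCNG1 (0.10) passed, and CCNG2 turned to 0.16. Leaving out replicate 1 of both groups took CCND3 (-0.13), CCNA2 (0.08), CCNB1 (0.05) and SRMS (0.51) past it. Single libraries left out gave -0.16 to -0.07 for CCND3, 0.04 to 0.13 for CCNA2, -0.18 to 0.03 for CCNG2 and 0.23 to 0.84 for SRMS. The cause of these changes was not tested. Counting precision is lowest for SRMS, with 2 to 47 reads per library, and among the cyclins for CCNG2, with 208 to 459.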
